A study of Mus musculus with 15 samples.

Results

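The genes of the TGF-beta and BMP pathway were examined in NMuMG cells, a mouse mammary epithelial line, and in derivatives with reduced PCBP1. The members were a list of 39 gene symbols covering ligands, receptors, extracellular storage and antagonist proteins, SMADs, intracellular inhibitors and response genes, and each was taken by exact match of its symbol. Of 15701 genes in the series, all 39 members were found. The first dataset held 38 of them and the second 38, and 37 were in both. Tgfbr3 was not analysed in the first dataset and Tgfbi was not analysed in the second.

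Ligands of this family are secreted as dimers, and TGF-beta itself is stored in the matrix in a latent form bound to LTBP proteins. A ligand brings together type II and type I receptor kinases, which phosphorylate receptor-regulated SMADs. Broadly, TGF-beta and activin signal through SMAD2 and SMAD3 and the BMPs through SMAD1 and SMAD5, and both branches share SMAD4. The pathway induces several of its own inhibitors, such as SMAD6, SMAD7 and PMEPA1. The ID genes are classical BMP response genes, and TGF-beta is a well-known inducer of epithelial-to-mesenchymal transition in mammary epithelium.

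The second dataset compared 2 NMuMG samples, described as untreated in the labels and as carrying a scrambled shRNA in the study's text, with 2 samples of NMuMG cells carrying an shRNA against PCBP1 (shPCBP1 cells). The first dataset held lines that all carry the PCBP1 shRNA, with 1 RNA sample per line. Its shPCBP1 group comprised the unaltered line and 3 control (CT) clones that had received Cas9 without gene-specific guides, and it was compared with 3 FAM3C KO clones and 3 LIFR KO clones. The series also holds 1 line with both genes targeted, here the double KO. Each KO line is a clone in which paired guides were meant to cut out a short piece of coding sequence, so the level of the targeted transcript does not by itself check the knockout. All lines come from 1 mouse line in culture, and nothing in the sources used here states that the 2 samples of a group in the second dataset were separate cultures, so p-values there measure only the spread between those samples.

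Values are CPM, the reads of a gene scaled to the total reads of its library. The implied depth ran from 16031859 to 46901675 reads per library in the first dataset and from 53032111 to 56496537 in the second. Pcbp1 was at 287 and 312 CPM in the NMuMG samples and at 14.1 and 14.2 CPM in the shPCBP1 samples, a log2 difference of -4.39 ± 0.04 (SE; limma adjusted p = 5.23e-14). Fam3c was at 26.4, 33.9 and 42.9 CPM in the FAM3C KO clones, below the 47.0 to 59.4 CPM of the shPCBP1 lines, with a log2 difference of -0.66 ± 0.19 (limma adjusted p = 0.232) and an exact permutation p = 0.0286. Across LIFR KO clones 1, 2 and 3, Lifr measured 34.9, 29.3 and 14.6 CPM and overlapped the 25.8 to 40.2 CPM of the shPCBP1 lines (log2 difference -0.37 ± 0.30; limma adjusted p = 0.384). Lifr was itself below every shPCBP1 line in the FAM3C KO clones, at 13.5, 10.5 and 19.2 CPM (log2 difference -1.18 ± 0.30; limma adjusted p = 0.175; exact permutation p = 0.0286). Among defining markers, the epithelial genes Krt8, Krt18 and Cdh1, which are 3 of the 6 listed, summed to at least 887.6 CPM in every library of the first dataset. The endothelial markers, which bear on Eng, summed to 0.422 to 2.00 CPM there and to at most 0.370 CPM in the second dataset.

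LIFR KO clones 2 and 3 and the double KO stood apart from the other libraries of the first dataset. In these 3 libraries the difference from the shPCBP1 lines fell with the GC content of the gene, with Spearman correlations across 12603 genes of -0.757, -0.744 and -0.702, against -0.286 to 0.240 in the other 8. Their mitochondrial share was 7.16% to 8.58%, against 3.14% to 4.06% elsewhere. The members called in LIFR KO are therefore given by clone, and also with clone 1 as the group's only library. In that fit the spread comes from the shPCBP1 and FAM3C KO lines alone, and the lone clone is assumed to vary as they do, so its p-values have no replicate of LIFR KO behind them.

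The promoters of Id3 and Id2 are shown because both encode inhibitors of differentiation that the BMP branch induces, and their differences with PCBP1 knockdown were of unequal size. Each line gives the 250 bases upstream of the transcription start given by RefSeq, 5′ to 3′ in the direction of the gene, from RefSeq on GRCm38.p6. The Id3 window lies at chr4:136143572-136143821 on the plus strand and Id2 at chr12:25096093-25096342 on the minus strand. GENCODE M21 starts both genes further upstream, with spans of chr4:136143497-136145755 and chr12:25093799-25097140, so the windows lie inside those spans. Capitals mark the SMAD element GTCT, on either strand (AGAC is its reverse complement), and the GC-rich element GGCGCC, which reads the same on both strands.
Id3: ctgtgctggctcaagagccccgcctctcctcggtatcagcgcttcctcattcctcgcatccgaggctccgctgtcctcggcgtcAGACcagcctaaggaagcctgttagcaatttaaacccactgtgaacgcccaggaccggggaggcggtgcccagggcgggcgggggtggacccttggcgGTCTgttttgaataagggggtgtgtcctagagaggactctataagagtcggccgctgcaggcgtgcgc
Id2: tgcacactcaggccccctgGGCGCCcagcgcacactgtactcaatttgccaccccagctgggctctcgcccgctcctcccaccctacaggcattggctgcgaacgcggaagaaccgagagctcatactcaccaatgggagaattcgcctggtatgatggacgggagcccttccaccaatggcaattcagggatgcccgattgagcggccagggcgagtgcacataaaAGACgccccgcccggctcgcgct
The Id3 window held 2 copies of GTCT or AGAC and none of GGCGCC, and the Id2 window held 1 of each. Among 32851 promoter entries of the same length, 82.9% held GTCT or AGAC and 9.59% held GGCGCC. Of the 28 members with a promoter entry, 24 held the former and 9 the latter in at least 1 entry. These members had 38 entries, so a count by gene is not on the same footing as the shares by entry. A match is a description of these letters only.

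The first comparison asked how the pathway changed with loss of PCBP1. Of the 36 members tested, those with a mean of at least 0.5 CPM, all 36 passed an adjusted p under 0.07, 19 higher and 17 lower in shPCBP1 cells. This threshold separated little, since 80.1% of all 11384 genes tested passed it. With a fold of at least 1.5 also required, 21 members were called, 13 higher and 8 lower, which is 58.3% of those tested against 31.1% of all genes. The median absolute log2 difference was 0.71 for the members and 0.36 for all genes. The 2 samples of each group were close to each other: their median squared difference was 1.73 times counting noise in NMuMG and 1.38 times in shPCBP1.

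**Figure D1:**
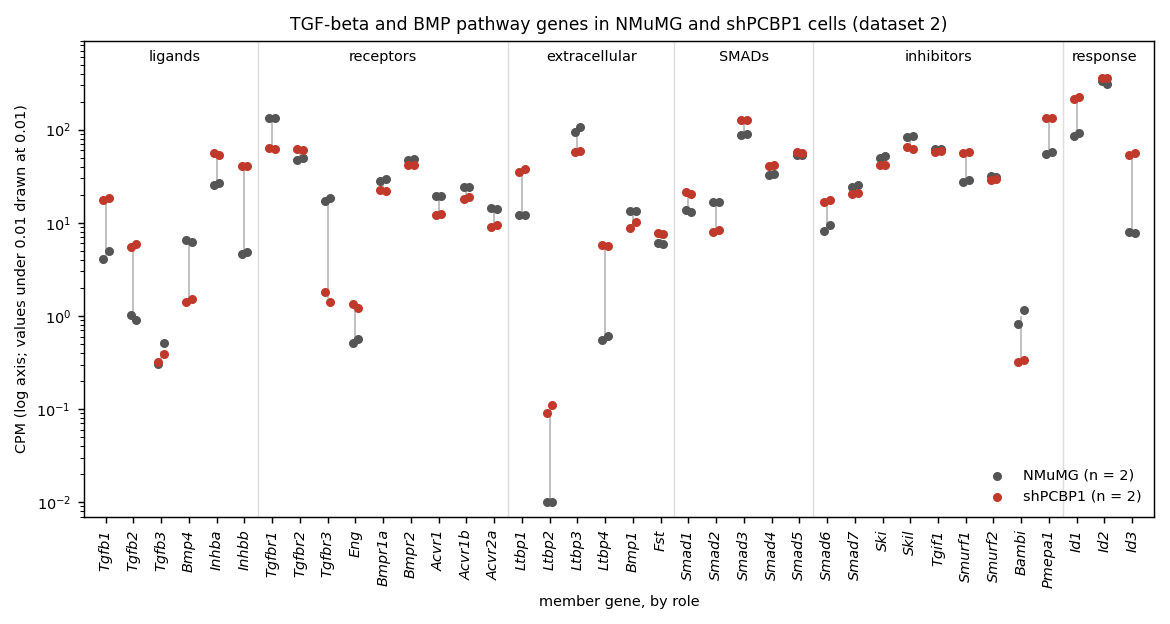
CPM of each member in the 2 NMuMG (grey) and 2 shPCBP1 (red) samples of the second dataset on a log axis, ordered by role, with a line joining the group means and Ltbp2, listed at 0 in NMuMG, drawn there near the foot of the axis. Among the members tested the widest separations are seen for Inhbb, Ltbp4, Id3 and Tgfbr3, whereas Id2, Tgif1, Smurf2 and Smad5 lie nearly on top of each other.

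Of the 5 ligands tested, Tgfb1, Tgfb2, Inhba and Inhbb rose and Bmp4 fell. Inhbb, which encodes the activin beta-B subunit, was at 4.67 and 4.90 CPM in NMuMG cells and at 40.4 and 40.3 CPM in shPCBP1 cells, a log2 difference of 3.05 ± 0.05 (SE, n = 2 per group; limma adjusted p = 4.55e-12). Inhba, the activin beta-A subunit, went from 25.6 and 26.7 CPM to 56.7 and 52.8 CPM, a log2 difference of 1.06 ± 0.04 (limma adjusted p = 1.49e-09). Both activin subunits were thus higher in each shPCBP1 sample than in either control sample. Tgfb1, at chr7:25687002-25705077, was at 4.09 and 5.02 CPM in NMuMG cells and at 17.4 and 18.6 CPM in shPCBP1 cells, a log2 difference of 1.97 ± 0.09 (limma adjusted p = 6.72e-09). Tgfb2 went from 1.03 and 0.905 CPM to 5.56 and 5.88 CPM, a log2 difference of 2.45 ± 0.12 (limma adjusted p = 9.04e-09). Bmp4, the BMP ligand on the list, was lower, at 1.42 and 1.53 CPM against 6.58 and 6.24 CPM, a log2 difference of -2.05 ± 0.11 (limma adjusted p = 1.59e-08). Tgfb3 was too low to test, at 0.301 and 0.509 CPM against 0.323 and 0.388 CPM, and the groups overlapped. Per kilobase of exon, the order of the ligand levels in NMuMG cells was Inhba at 4.09, Bmp4 at 2.85, Inhbb at 1.13 and Tgfb1 at 0.903 CPM per kb. In shPCBP1 cells it was Inhbb at 9.48, Inhba at 8.57, Tgfb1 at 3.57, Tgfb2 at 0.987 and Bmp4 at 0.656 CPM per kb.

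Of the 9 receptors, 7 were lower and 2 higher by adjusted p alone, which 80.1% of all genes passed. With a fold of at least 1.5, 4 were lower and 1 higher, which is 55.6% of the receptors against 31.1% of all genes. Tgfbr3, the co-receptor betaglycan that presents TGF-beta2 to its receptor, was at 16.9 and 18.4 CPM in NMuMG cells and at 1.81 and 1.42 CPM in shPCBP1 cells, a log2 difference of -3.38 ± 0.11 (limma adjusted p = 4.23e-10). Tgfbr1, the type I TGF-beta receptor, went from 132 and 134 CPM to 63.4 and 62.2 CPM, a log2 difference of -1.08 ± 0.03 (limma adjusted p = 3.11e-11). Its type II partner Tgfbr2 was slightly higher, at 62.4 and 61.0 CPM against 47.5 and 49.4 CPM, and did not reach the fold threshold. Per kilobase of exon, Tgfbr1 was at 20.4 and Tgfbr2 at 5.91 CPM per kb in NMuMG cells, and they were at 9.61 and 7.53 CPM per kb in shPCBP1 cells. Among the activin and BMP receptors, Acvr1 had a log2 difference of -0.66 ± 0.05 (limma adjusted p = 4.17e-07) and Acvr2a of -0.61 ± 0.06 (limma adjusted p = 3.68e-06). Acvr1b, Bmpr1a and Bmpr2 were also called lower, with smaller log2 differences of -0.39, -0.36 and -0.22. Eng, the co-receptor endoglin, was called higher at a low level, 1.34 and 1.22 CPM against 0.513 and 0.566 CPM, with a log2 difference of 1.11 ± 0.16 (limma adjusted p = 5.97e-05). The endothelial markers listed summed to 0.359 to 0.370 CPM in shPCBP1 cells and to at most 0.0712 CPM in NMuMG cells, and their part in the Eng value was not tested. In bulk RNA, fewer cells of a type and less RNA per cell cannot be told apart.

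Among the proteins that store and process the ligands, 3 of the 5 tested were higher and 2 lower by adjusted p alone. With a fold of at least 1.5, 2 were higher and 1 lower, which is 60% against 31.1% of all genes. Ltbp4, a latent TGF-beta binding protein of the matrix at chr7:27305136-27337692, was at 0.549 and 0.604 CPM in NMuMG cells and at 5.75 and 5.56 CPM in shPCBP1 cells, a log2 difference of 3.09 ± 0.13 (limma adjusted p = 1.93e-09). Ltbp1 went from 12.2 CPM in both NMuMG samples to 35.1 and 38.1 CPM, a log2 difference of 1.58 ± 0.05 (limma adjusted p = 2.62e-10). Ltbp3 moved the opposite way, from 93.9 and 106.9 CPM to 58.0 and 59.3 CPM, a log2 difference of -0.77 ± 0.05 (limma adjusted p = 6.99e-08). The LTBP genes therefore did not share a direction. Ltbp2 was listed at 0 in both NMuMG samples, where 0.0001 CPM stands for no reads, and at 0.0897 and 0.111 CPM in shPCBP1 cells, too low to test. Bmp1, a protease that processes matrix proteins, and Fst, which encodes the activin antagonist follistatin, were called at log2 differences of -0.49 and 0.37, under the fold threshold.

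Of the SMADs that carry the signal, Smad2 and Smad1 passed the fold threshold, in opposite directions. Smad2 was at 16.8 and 16.6 CPM in NMuMG cells and at 7.97 and 8.26 CPM in shPCBP1 cells, a log2 difference of -1.03 ± 0.06 (limma adjusted p = 3.12e-08). Smad1 went from 13.6 and 13.1 CPM to 21.6 and 20.3 CPM, a log2 difference of 0.65 ± 0.05 (limma adjusted p = 6.16e-07). Smad3, the other SMAD of the TGF-beta branch, was called higher at 127.0 and 126.7 CPM against 86.5 and 88.8 CPM, a log2 difference of 0.53 that fell just short of the fold threshold. Smad4 and Smad5 were called higher at log2 differences of 0.33 and 0.09.

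By adjusted p alone, which 80.1% of all genes passed, 3 of the 9 inhibitors were higher and 6 lower. With a fold of at least 1.5, 3 were higher and 1 lower, which is 44.4% of the inhibitors against 31.1% of all genes. Pmepa1, a TGF-beta-induced membrane protein that binds receptor-regulated SMADs, was at 55.4 and 57.9 CPM in NMuMG cells and at 131.8 and 131.9 CPM in shPCBP1 cells, a log2 difference of 1.22 ± 0.03 (limma adjusted p = 2.76e-11). Smurf1, a ubiquitin ligase for BMP SMADs, went from 27.2 and 28.9 CPM to 55.9 and 57.1 CPM, a log2 difference of 1.01 ± 0.04 (limma adjusted p = 9.27e-10). Smad6, the inhibitory SMAD of the BMP branch, went from 8.14 and 9.54 CPM to 16.5 and 17.7 CPM, a log2 difference of 0.95 ± 0.08 (limma adjusted p = 6.78e-07). Bambi, a pseudoreceptor, was low throughout and went from 0.814 and 1.15 CPM to 0.323 and 0.333 CPM, a log2 difference of -1.32 ± 0.19 (limma adjusted p = 7.77e-05). Smad7, the transcriptional co-repressors Ski, Skil and Tgif1, and Smurf2 were called lower with log2 differences between -0.42 and -0.09.

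All 3 ID genes tested were called higher, by very different amounts. Id3 was at 8.001 and 7.83 CPM in NMuMG cells and at 52.8 and 55.4 CPM in shPCBP1 cells, a log2 difference of 2.76 ± 0.05 (limma adjusted p = 2.80e-12). Id1 went from 85.9 and 92.1 CPM to 213 and 223 CPM, a log2 difference of 1.29 ± 0.03 (limma adjusted p = 7.31e-11). Id2 was at 334 and 312 CPM against 361 and 357 CPM, a log2 difference of 0.15 that did not reach the fold threshold. Per kilobase of exon, Id2 was the most abundant of the 3 in NMuMG cells, at 133 CPM per kb against 76.7 for Id1 and 4.42 for Id3. In shPCBP1 cells Id1 was at 188, Id2 at 147 and Id3 at 30.2 CPM per kb.

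A further list of 89 pathway genes held 65 in the second dataset, of which 45 were tested. By adjusted p alone 42 were called, 31 higher and 11 lower, which is 93.3% of those tested against 80.1% of all genes. With a fold of at least 1.5, 20 were called, 18 higher and 2 lower, which is 44.4% of those tested against 31.1% of all genes. The 5 with the highest fitted differences all rose. Atoh8, a BMP-induced transcription factor, went from 0.106 and 0.113 CPM to 17.8 and 16.3 CPM. Bmp2 was listed at 0 in both NMuMG samples and at 4.59 and 4.29 CPM in shPCBP1 cells, and Msx1, a BMP-induced homeobox gene, was listed at 0 and reached 2.06 and 2.11 CPM. Bmp7, another BMP ligand outside the members, was called higher too, with a log2 difference of 0.54 (limma adjusted p = 2.06e-05). Lrrc32, which anchors latent TGF-beta at the cell surface, went from 0.0886 and 0.245 CPM to 6.58 and 7.21 CPM, and Fn1, which encodes fibronectin, from 10.8 and 10.5 CPM to 117 and 119 CPM. The 5 lowest called were Nrros, Trim33, Lefty1, Twsg1 and E2f5, with log2 differences of -1.41, -0.71, -0.56, -0.54 and -0.51. The mesenchymal markers, Fn1 among them, summed to 530 to 550 CPM in NMuMG cells and to 1295 to 1329 CPM in shPCBP1 cells, and their part in the members' values was not tested.

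The KO comparisons asked whether FAM3C or LIFR, both studied downstream of PCBP1 loss, hold these genes at their level in shPCBP1 cells. Both KO groups were set against the same 4 shPCBP1 lines, so the comparisons are not independent. Of 37 members tested in the first dataset, all but Tgfbi, which was at or near its lowest listed value in all lines but CT clone 3, none passed in the FAM3C KO clones with limma (adjusted p under 0.07), where 0.309% of 12621 genes did. At an unadjusted p under 0.05, 4 members passed, where 1286 of the 12621 genes did. The median log2 difference was 0.07 for the members and -0.01 for all genes.

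**Figure D2:**
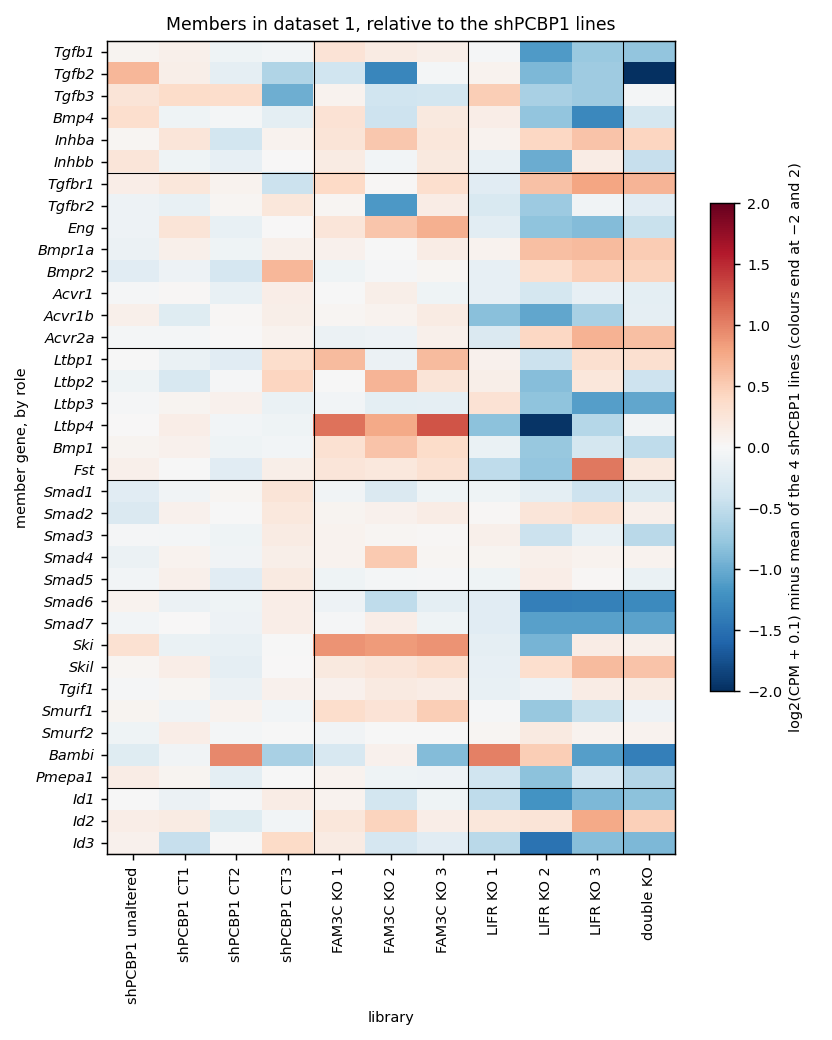
Difference of log2(CPM + 0.1) from the mean of the 4 shPCBP1 lines for 37 members (rows, by role) in the 11 libraries of the first dataset (columns); red is higher, blue is lower, and colours end at -2 and 2. Ltbp4 and Ski are red in all 3 FAM3C KO clones, and Smad6, Smad7, Id1 and Id3 are blue in LIFR KO clones 2 and 3 and in the double KO.

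Among the 37 members, 7 were higher in every FAM3C KO clone than in every shPCBP1 line, namely Ltbp4, Ski, Bmp1, Smurf1, Tgfb1, Fst and Skil, and none was lower in every clone. Over all genes 10.1% were higher and 12.5% lower in this sense. Ltbp4 was at 46.1, 36.6 and 51.6 CPM in the FAM3C KO clones against 20.4 to 23.6 CPM in the shPCBP1 lines, a log2 difference of 1.03 ± 0.28 (limma adjusted p = 0.197; exact permutation p = 0.0286). Ski, at chr4:155154075-155222592, was at 135.0, 130.7 and 135.1 CPM against 65.1 to 89.4 CPM, a log2 difference of 0.89 ± 0.22 (limma adjusted p = 0.157; exact permutation p = 0.0286). These are the widest separations among the members in this comparison. Bmp1 was at 20.1, 24.4 and 21.2 CPM against 15.5 to 17.4 CPM (log2 difference 0.42 ± 0.15; limma adjusted p = 0.354; exact permutation p = 0.0286). Smurf1 was at 80.02, 76.0 and 88.6 CPM against 60.0 to 66.3 CPM (log2 difference 0.37 ± 0.15; limma adjusted p = 0.430; exact permutation p = 0.0286). For the remaining 3 the groups nearly touched. Tgfb1 was at 43.3 to 48.0 CPM against 37.3 to 42.7 CPM (log2 difference 0.19 ± 0.21; limma adjusted p = 0.880), Fst at 19.8 to 21 CPM against 14.6 to 18.6 CPM (log2 difference 0.25 ± 0.35; limma adjusted p = 0.907) and Skil at 119.5 to 130.9 CPM against 92.3 to 115.1 CPM (log2 difference 0.25 ± 0.16; limma adjusted p = 0.696), each with an exact permutation p = 0.0571. An exact p of 0.0286 is the smallest that 4 lines against 3 can give. The mesenchymal markers summed to 1998 to 2147 CPM in the FAM3C KO clones and to 1731 to 1971 CPM in the shPCBP1 lines. They did not share a direction. Cdh2 and Zeb1 were higher in every clone, whereas Vim and Fn1 overlapped. Twist1 was lower, at 0.0384 to 0.0443 CPM, the lowest listed value of each clone, against 0.0808 to 3.62 CPM. The part of these markers in the members' values was not tested.

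The call for these genes depended on whether the LIFR KO libraries shared the estimate of spread. With the FAM3C KO and shPCBP1 lines fitted alone, Ltbp4, Ski, Bmp1 and Smurf1 were all called higher, with adjusted p-values of 0.00388, 0.00506, 0.0358 and 0.0242 (limma), beside 8.29% of all genes. The log2 differences are the same in both fits. Without LIFR KO clone 2, or without clone 3, 2 members were called, Ltbp4 and Ski in each case. Over all genes, 359 were called without clone 3, the most of any fit that left out a single library.

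Several members that differed with PCBP1 knockdown overlapped the shPCBP1 lines in the FAM3C KO clones. Id1 was at 188, 139 and 168 CPM against 165 to 197 CPM, Id3 at 45.2, 31.9 and 34.3 CPM against 29.2 to 52.6 CPM, and Inhbb at 70.9, 60.7 and 72.0 CPM against 56.2 to 74.9 CPM. Smad7 overlapped as well, at 71.5 to 83.2 CPM against 70.5 to 83.5 CPM. Smad6 was at 25.46, 19.2 and 23.9 CPM against 25.35 to 30.2 CPM, so it overlapped through clone 1 alone. Its log2 difference was -0.27 ± 0.25 (limma adjusted p = 0.839, exact permutation p = 0.0571). Of the 8 receptors tested, none was separated. FAM3C KO clone 2 had Tgfbr2 at 42.8 CPM, where the other clones had 98.0 and 105.2 CPM, and Ltbp1 at 148.5 CPM, where they had 248.5 and 247.6 CPM.

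In the LIFR KO clones, 7 of the 37 members were called, all lower, where 6.47% of all genes were called. In that fit of all 3 groups, 13 members had an unadjusted p under 0.05 (limma), where 4503 of 12621 genes did. With the LIFR KO and shPCBP1 lines fitted alone none was called, where 0.278% of all genes were. The 7 were the activin receptor Acvr1b, the storage protein Ltbp4, the inhibitors Smad6, Smad7 and Pmepa1, and the response genes Id1 and Id3. The median gene of all those tested was itself at a log2 difference of -0.16, and 701 of the 816 genes called were lower. After rescaling each library to the median ratio, 288 of 478 genes called were lower, and 3 members were called, Acvr1b, Id1 and Smad7. The members' median log2 difference of -0.23 became -0.07, with 21 of 37 negative in place of 25. Relative to the median gene, the 7 members differed by -0.95 for Ltbp4, -0.82 for Smad6, -0.80 for Id3, -0.70 for Id1, -0.68 for Acvr1b, -0.64 for Smad7 and -0.35 for Pmepa1.

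Acvr1b, a type I receptor for activin at chr15:101174067-101213684, measured 14.2, 12.3 and 16.3 CPM across LIFR KO clones 1, 2 and 3 and 21.7 to 27.7 CPM in the shPCBP1 lines, a log2 difference of -0.84 ± 0.13 (limma adjusted p = 0.0281; exact permutation p = 0.0286). All 3 clones were low, and with clone 1 as the group's only library the difference was -0.84 (limma adjusted p = 0.0378). The double KO was at 22.6 CPM, within the range of the shPCBP1 lines. Ltbp4 was at 12.2, 5.49 and 14.4 CPM against 20.4 to 23.6 CPM, a log2 difference of -1.11 ± 0.28 (limma adjusted p = 0.0554; exact permutation p = 0.0286). With clone 1 alone the difference was -0.81 (limma adjusted p = 0.0646), and the double KO was at 20.5 CPM. These 2 members passed with clone 1 alone, where the spread is that of the other groups, beside 2.22% of all genes.

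For Smad6 and Smad7 clone 1 was nearer to the shPCBP1 lines than clones 2 and 3 were. Smad6 was at 23.4, 10.5 and 10.7 CPM in clones 1, 2 and 3 and at 25.4 to 30.2 CPM in the shPCBP1 lines, a log2 difference of -0.99 ± 0.25 (limma adjusted p = 0.0574; exact permutation p = 0.0286). Smad7 was at 64.6, 35.5 and 35.6 CPM against 70.5 to 83.5 CPM, a log2 difference of -0.80 ± 0.19 (limma adjusted p = 0.0509; exact permutation p = 0.0286). For both inhibitory SMADs clone 1 lay just under the lowest shPCBP1 line, and with clone 1 alone the log2 difference was -0.23 for each (limma adjusted p = 0.645 and 0.483). The double KO was at 11.2 CPM for Smad6 and 36.2 CPM for Smad7, at the level of clones 2 and 3.

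Id1, Id3 and Pmepa1 were below every shPCBP1 line in all 3 clones. Id1 was at 125, 78.2 and 96.1 CPM against 165 to 197 CPM, a log2 difference of -0.86 ± 0.16 (limma adjusted p = 0.0361; exact permutation p = 0.0286). Id3 was at 27.6, 14.3 and 22.3 CPM against 29.2 to 52.6 CPM, a log2 difference of -0.96 ± 0.25 (limma adjusted p = 0.0585; exact permutation p = 0.0571). Pmepa1 was at 139.6, 103.6 and 145.8 CPM against 160.8 to 202.8 CPM, a log2 difference of -0.52 ± 0.13 (limma adjusted p = 0.0586; exact permutation p = 0.0286). With clone 1 alone the log2 differences were -0.51, -0.54 and -0.39, and none was called (limma adjusted p = 0.187, 0.497 and 0.214). In the double KO these 3 genes were at 101, 21.5 and 122 CPM. Id2 went the other way, at 334, 340 and 481 CPM against 239 to 318 CPM, and was not called (log2 difference 0.42 ± 0.16; limma adjusted p = 0.103; exact permutation p = 0.0286). Id2 has a GC content of 45.1% and Id1 and Id3 of 54.7% and 55.6%.

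**Figure D3:**
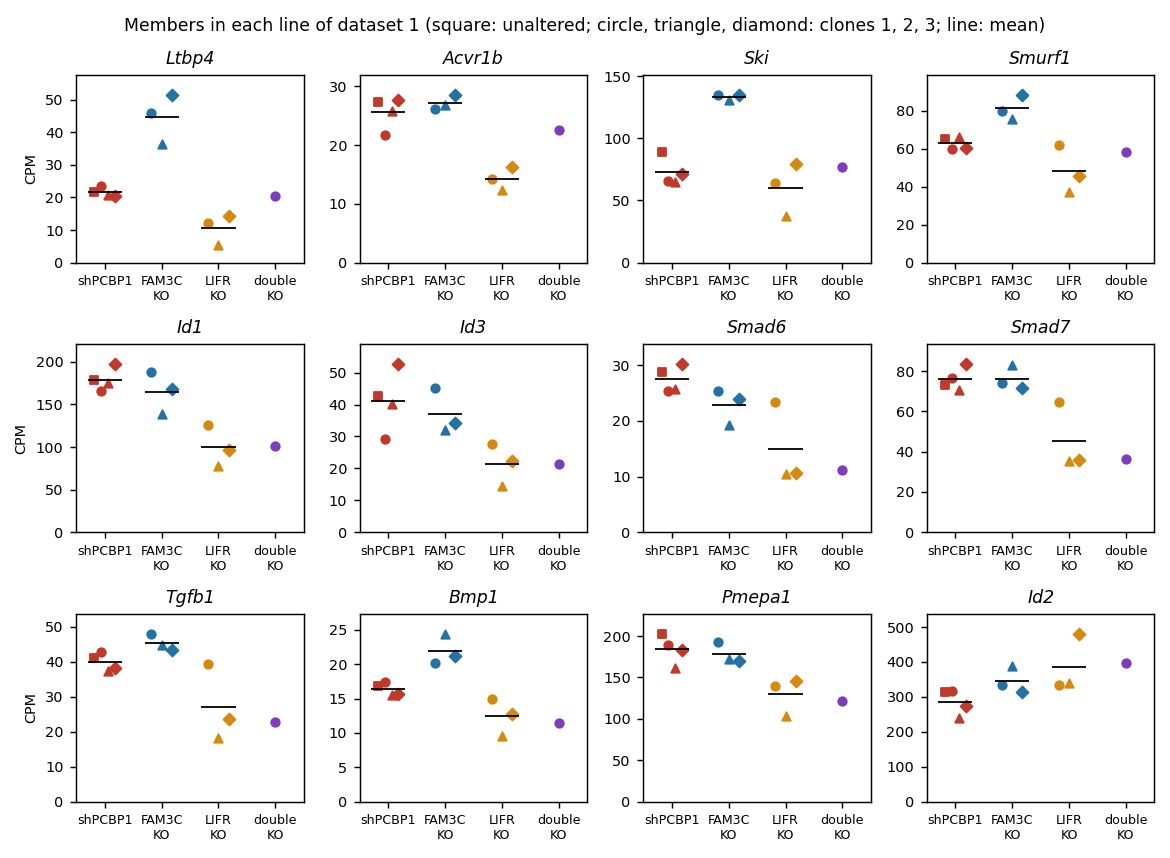
CPM of 12 members in each line of the first dataset, with axes from 0, squares for the unaltered line, circles, triangles and diamonds for clones 1, 2 and 3, and a line at the group mean. Acvr1b and Ltbp4 are low in all 3 LIFR KO clones, whereas for Smad6, Smad7 and Tgfb1 clone 1 lies near the shPCBP1 lines.

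The GC trend was present among the members. Across the 37 tested, the Spearman correlation of GC content with the difference from the shPCBP1 lines was -0.156 in LIFR KO clone 1, -0.846 in clone 2, -0.600 in clone 3 and -0.635 in the double KO. These points share a library and the same 4 control lines. The 7 members called had GC contents of 53.5% to 62.2%, median 55.6%, and the 30 not called had 39.9% to 60.9%, median 49.1%. Some members of low GC content stood higher in clones 2 and 3 than in clone 1. Tgfbr1 was at 135 and 157 CPM there, at 77.3 CPM in clone 1 and at 67.1 to 105.4 CPM in the shPCBP1 lines, and Bmpr1a was at 66.7 and 68.4 CPM, at 46.1 CPM in clone 1 and at 40.4 to 47.1 CPM. After a correction for GC content fitted in each library, no member was called (limma), where 0.309% of all genes were called. The 7 members called without it then had log2 differences of -0.48 for Id3, -0.46 for Acvr1b, -0.43 for Id1, -0.34 for Ltbp4, -0.27 for Smad6 and for Smad7 and -0.09 for Pmepa1, with limma adjusted p from 0.0917 to 0.744. All 7 were smaller in size than before the correction. Whether the trend is technical was not tested.

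**Figure D4:**
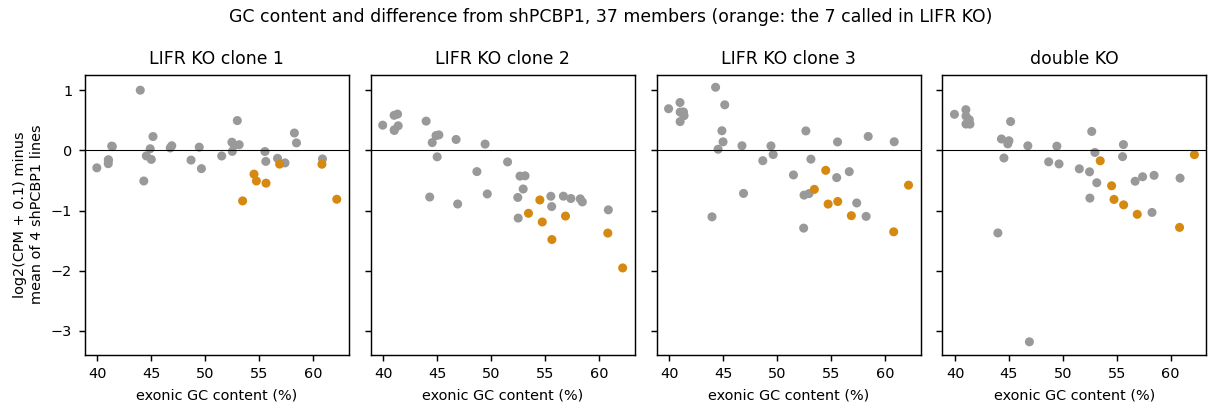
Difference of log2(CPM + 0.1) from the mean of the 4 shPCBP1 lines against the GC content of the gene's longest transcript in percent. The 37 members are shown in each LIFR KO clone and the double KO, with the 7 members called in LIFR KO in orange. The points slope downward in clones 2 and 3 and in the double KO, and clone 1 shows little slope.

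Beside the 7 members called, 4 more had no overlap between LIFR KO clones and shPCBP1 lines: Id2, higher, and Eng, Acvr1 and Bmp1, lower. In all, 10 members were lower in every clone, where 13.2% of all genes were, and 1 was higher, where 3.95% were. Eng was at 1.56, 0.998 and 0.943 CPM against 1.62 to 2.17 CPM (log2 difference -0.63 ± 0.23; limma adjusted p = 0.102; exact permutation p = 0.0286). Bmp1 was at 14.9, 9.61 and 12.8 CPM against 15.5 to 17.4 CPM (log2 difference -0.42 ± 0.15; limma adjusted p = 0.0982; exact permutation p = 0.0286), and after the GC correction its difference was 0.11. Acvr1 was at 24.1, 21.1 and 23.9 CPM against 24.4 to 29.6 CPM (log2 difference -0.23 ± 0.11; limma adjusted p = 0.151; exact permutation p = 0.0571). In clone 1 alone the log2 differences were -0.21 for Eng, -0.13 for Bmp1, -0.16 for Acvr1 and 0.23 for Id2, and none was called (limma adjusted p from 0.653 to 0.841). No ligand was called: Tgfb1 was at 39.3 CPM in clone 1, within the 37.3 to 42.7 CPM of the shPCBP1 lines, and at 18.2 and 23.7 CPM in clones 2 and 3. None of the receptor-regulated SMADs was called, nor was Smad4, which was at 109.1, 113.0 and 110.6 CPM against 97.1 to 113.5 CPM. The epithelial markers summed to 887.6 to 1490 CPM in the LIFR KO clones and to 1751 to 2155 CPM in the shPCBP1 lines. Krt8 and Krt18 were lower in every clone, whereas Cdh1 overlapped, at 268 to 344 CPM against 292 to 346 CPM. The mesenchymal markers summed to 1212 to 1865 CPM in the clones against 1731 to 1971 CPM. The part of either set of markers in these values was not tested.

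Leaving out single libraries changed this count. Without LIFR KO clone 1, 21 members were called, 6 higher and 15 lower, and without clone 2 none was called (limma). Over all genes, the counts ran from 5, without CT clone 2, to 7234, without LIFR KO clone 1. Without the unaltered shPCBP1 line, CT clone 2 or CT clone 3 no member was called, and without CT clone 1 there was 1. Without FAM3C KO clone 1 or clone 3 there were 2, and without FAM3C KO clone 2 there were 4. Counts over all genes are given here for the extremes only, so the members' counts between them show instability and nothing particular to the members.

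Set directly against each other, the FAM3C KO and LIFR KO clones differed in 9 of 37 members, all higher in FAM3C KO, where 8.28% of all genes were called and the median gene stood at a log2 difference of 0.14 (862 of 1045 genes called were higher, and 494 of 818 after median-ratio rescaling). Ltbp4 had the largest difference, from 36.6 to 51.6 CPM in FAM3C KO to 5.49 to 14.4 CPM in LIFR KO, a log2 difference of 2.15 ± 0.30 (limma adjusted p = 0.0240). Ski differed by 1.21 ± 0.23 (adjusted p = 0.0366), Acvr1b by 0.93 ± 0.14 (adjusted p = 0.0240) and Bmp1 by 0.83 ± 0.16 (adjusted p = 0.0366). Against LIFR KO clone 1 alone, with the spread taken from the other groups, these 4 genes were among 6 members called, beside 9.45% of all genes. Eng, Smad7, Tgfb1, Smurf1 and Id1 were called with log2 differences of 1.13 ± 0.25, 0.81 ± 0.20, 0.82 ± 0.22, 0.78 ± 0.16 and 0.74 ± 0.17 (adjusted p = 0.0411, 0.0512, 0.0615, 0.0387 and 0.0434), and were not called against clone 1 alone. Before any correction, 13 members had an unadjusted p under 0.05 (limma), where 3693 of 12621 genes did. After the GC correction none of the 9 was called, where 0.555% of all genes were. With the KO groups fitted alone none was called either (limma), nor was any other gene. Without FAM3C KO clone 1 or clone 3 none of the members was called (limma), and without FAM3C KO clone 2 there were 2. Without LIFR KO clone 2 there were 3, and without LIFR KO clone 1 there were 18. Over all genes, the counts ran from 1, without FAM3C KO clone 3, to 6673, without LIFR KO clone 1. The members' counts in the fits between these extremes are not read against all genes. With 3 lines against 3 an exact permutation test could not pass 0.05.

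Of the 51 further pathway genes tested in the first dataset, none was called in the FAM3C KO clones, where 0.309% of all genes were. In the LIFR KO clones 2 were called lower, which is 3.92% of those tested against 6.47% of all genes. Gdf15, a divergent member of the ligand family induced by cell stress, was at 17.2, 6.41 and 7.93 CPM in the LIFR KO clones and at 29.4 to 33.8 CPM in the shPCBP1 lines, a log2 difference of -1.71 ± 0.30 (limma adjusted p = 0.0348; exact permutation p = 0.0286). Ep300, which encodes the acetyltransferase p300, a SMAD co-activator, was at 195, 162 and 209 CPM against 227 to 263 CPM, with a log2 difference of -0.39 ± 0.11 (limma adjusted p = 0.0669). With clone 1 alone the log2 differences were -0.87 for Gdf15 and -0.34 for Ep300, and neither was called (limma adjusted p = 0.170 and 0.184). Between the KO groups, Gdf15, Ep300 and Fn1 were higher in FAM3C KO, with log2 differences of 1.39, 0.45 and 0.91 (limma adjusted p = 0.0436, 0.0523 and 0.0535). These are 5.88% of those tested, against 8.28% of all genes.

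The double KO is 1 library and was not tested. Its Smad6, Smad7, Id1 and Id3 values were below, and its Tgfbr1 and Bmpr1a values above, those of every shPCBP1 line. Tgfb2 was at 0.515 CPM, the lowest of the 11 libraries, where the others had 2.16 to 8.79 CPM. Ltbp4, Acvr1b and Ski were at 20.5, 22.6 and 77.3 CPM, inside the range of the shPCBP1 lines. Smurf1, at 58.5 CPM, was just under that range, and Bmp1, at 11.4 CPM, was below every shPCBP1 line.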

How the data were processed

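RNA-Seq was analysed from 15 samples in 2 datasets. According to the labels and the study's methods, rRNA-depleted directional libraries were sequenced as paired-end reads, aligned to the mouse genome (GRCm38/mm10) with Bowtie2 and processed in Partek Flow, version 10.0.21. Both deposited files hold CPM, normalised by the authors. The second also holds the authors' group means and fold changes, which were not used. In the first file a library's lowest value stands for no reads, and in the second 0.0001 CPM does. Low values were whole multiples of 1 read, within 0.1 read, for 90.5% to 92.7% of values in the first dataset and 93.8% to 94.4% in the second, so no count test was run. The read total implied by 1 read's worth sets the depth given.

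Genes averaging 0.5 CPM or more were tested with limma 3.58.1 (R 4.3.3) with a mean-variance trend on log2(CPM + 0.1), which understates the change of low genes, and Benjamini-Hochberg adjustment over all genes tested. Genes with an adjusted p under 0.07, the study's threshold, were called. One fit covered the 3 groups of the first dataset, leaving out the double KO, and another the 2 samples against 2 of the second, where an exact test could not go below 0.333. Exact two-sided permutation tests used the difference of mean log2 values. The steps were tested on simulated data. The datasets were normalised separately, so no level was compared between them. Gene positions are from GENCODE M21 on GRCm38, since few starts in the first file match that build. The GC content of a gene is that of its longest transcript in GENCODE M21. Replicates differed by more than counting noise in every pair and were kept apart. The members and lists were chosen with earlier results of these data known. Members called, separated between groups, or past the fold threshold are given with their statistics. Other pathway genes are given as counts, with values for the 5 highest and lowest in the second dataset and those called in a KO comparison. Alternatives changed the pseudocount, filter, scaling, threshold, GC correction, libraries and groups fitted together.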

Additional observations from a re-analysis of the deposited data

Results flagged for a closer look

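Values of the members in the 4 shPCBP1 lines of the first dataset were compared with Dixon's test for an outlying line, on the CPM scale. CT clone 3 lay apart from the other 3 lines for 2 of the 38 members. Tgfbi, a secreted TGF-beta-induced matrix protein, was at 0.79 CPM in CT clone 3 and at 0.0213 to 0.0624 CPM in the others. Tgfb3 was at 0.344 CPM in CT clone 3 and at 0.936 to 1.02 CPM in the others. Chance alone flags about 1 in 20 groups, or 1.9 of 38 members. Tgfbi was not tested in any comparison.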

How the results depend on the processing

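In the second dataset, 33 to 36 of the 36 members were called when single samples were left out, and 21 when a fold of at least 1.5 was also required. With that fold, 20 to 22 were called when single samples were left out, and 18 with a pseudocount of 1 CPM. None of the 21 members past that fold changed direction or lost its call by adjusted p, the fold aside, under an alternative in which it was tested. Smad5, Smurf2 and Tgif1 lost theirs without shPCBP1 sample 1, and Smurf2 without NMuMG sample 1. In the FAM3C KO comparison, where no member was called (limma), GC correction gave 2 (Ski and Smurf1), the groups fitted alone 4, clone 1 as the sole LIFR KO line 4, and leaving out single libraries 0 to 2. In the LIFR KO comparison, 7 members became 3 with median-ratio rescaling, 2 at an adjusted p under 0.05, 2 with clone 1 as the sole LIFR KO line, and 0 with GC correction or with the groups fitted alone, and leaving out single libraries gave 0 to 21. The difference of Bmp1 turned from -0.42 to 0.11 with GC correction. Between the KO groups, 9 members became 0 with GC correction or with the groups fitted alone, and leaving out single libraries gave 0 to 18. The pseudocount and the filter on low values left each count of members within 1.5 times. The cause was not tested.

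Over all genes, the 39 called in FAM3C KO became 21 with a filter of 1 CPM, 238 with GC correction, 1048 with the groups fitted alone and 1060 with LIFR KO clone 1 only. The 816 called in LIFR KO became 478 with rescaling, 39 with GC correction, 35 alone, 281 with clone 1 only and 359 at an adjusted p under 0.05, and the 1045 between the KO groups became 70, 0 and 587 with GC correction, alone and at that threshold. With single libraries left out, the counts over all genes ran from 3 to 359 in FAM3C KO and from 5 to 7234 in LIFR KO. Between the KO groups they ran from 1 to 6673. Libraries that share a replicate number did not deviate together (their correlations were -0.189 to 0.154, and 0.0512 in the smaller dataset), so the numbers do not pair them. With the number as a replicate block, 0 members were called in each comparison of the first dataset, of 15, 10 and 0 genes in all. Members averaging under 1 CPM in a dataset (Tgfb3, Ltbp2, Bambi, Eng, Tgfbi) are limited by depth.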
